A study of Mus musculus with 12 samples.

Results

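The 9 genes described here encode the contractile apparatus of smooth muscle: the actins Acta2 and Actg2, the myosin heavy chain Myh11, the regulatory light chain Myl9 and its kinase Mylk, the thin-filament proteins Tagln, Cnn1 and Lmod1, and the intermediate filament protein Des. They were taken as a fixed list of symbols, and all 9 were found among the 23366 gene entries of the count files. RNA-seq was done on sorted mouse small-intestinal cells in 4 groups of 3 biological replicates, all of a mixed strain labelled C57BL/6 CD1. E12.5 and E14.5 were live embryonic cells gated on EpCAM and against CD31 and CD45 after collagenase treatment, with each E12.5 library made from a pool of 20 embryos and the size of the E14.5 pools not given in the sources used here. ISC were Lgr5-EGFP-high stem cells from crypts, and AE were villus cells, called enterocytes in the labels, gated in the way the embryonic cells were. Both adult groups came from Lgr5EGFP-Cre-ERT males at postnatal day 60, with 1 gut per library. The embryos' genotype at Lgr5 is not given in the sources used here, and the EpCAM gate of the AE sort would also take villus epithelial cells other than enterocytes.

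In all 6 embryonic libraries the age label names the other stage than the title, so every direction between E14.5 and E12.5 rests on the titles. Between 12587626 and 45190749 reads per library were assigned to genes. Reads with several alignments made up 3.06% to 5.96% of every library of E12.5 and of ISC, and every file of E14.5 and of AE gives them as 0, so in the comparisons of E14.5 with E12.5, ISC with E14.5, AE with ISC and AE with E12.5 this difference in the files and the group cannot be told apart. Epcam, the surface protein used for the sort, averaged 483 ± 46.9 counts per 1000000 (CPM) at E12.5, 854 ± 20.4 at E14.5, 1042 ± 49.7 in ISC and 1602 ± 406 in AE (SD, n = 3 each), and Lgr5 was highest in ISC at 507 ± 39.6 CPM. CPM are scaled for library size and composition, as described under the processing.

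Smooth muscle contracts when calcium-bound calmodulin activates myosin light chain kinase, which phosphorylates the regulatory light chain and lets the myosin heads pull on actin filaments. In the gut the contractile cells form the muscle layers outside the mucosa and a thin sheet at its base. They differentiate from mesenchyme, some of them during the embryonic stages sampled here. Many of their genes carry CArG boxes, the binding sites of serum response factor, whose coactivator myocardin is a regulator of the smooth muscle programme. The intestinal epithelium is not a smooth muscle tissue, but epithelial cells do make myosin light chain kinase, which acts on the actin and myosin ring at their junctions.

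The 2 smooth muscle actins are nearly the same protein, so a stretch of their coding sequences is shown to make clear what separates their counts. The 60 bases were picked as the stretch with the most differences, leaving out the first part of the coding sequence. Over them the genes differ at 16, marked in capitals. Acta2 lies on chromosome 19 and the stretch covers coding bases 436 to 495, while Actg2 lies on chromosome 6 and the stretch covers coding bases 433 to 492, both read 5′ to 3′ from GENCODE M21 transcripts.

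Acta2: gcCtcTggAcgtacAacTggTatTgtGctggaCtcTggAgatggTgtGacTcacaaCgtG
Actg2: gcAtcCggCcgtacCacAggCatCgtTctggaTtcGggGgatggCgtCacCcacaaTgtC

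Over the whole coding sequence the 2 actins were identical at 83.6% of bases, and the longest run without a difference was 29 bases. No 50-base stretch of Actg2, Cnn1, Myl9 or Lmod1 occurred in a transcript of another gene, and 0.326% of those of Acta2 and 0.340% of those of Myh11 did. Tagln differed from the other members in that 58.4% of its 50-base stretches lay opposite another gene, made up of 55.4% opposite the antisense gene Gm48529 and 2.98% opposite Pcsk7. No source used here gives the strand setting of the counting, so reads of Tagln and of its antisense partners could not be told apart, and its values are uncertain. The share was 4.61% for Des and 4.56% for Mylk, most of it antisense as well.

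RefSeq promoter windows, from 250 bases before to 50 bases after the start of the gene in the GRCm38.p6 build, were at hand for 6 of the 9 genes. Those of Acta2 (chr19:34255324-34255623, minus strand) and Myl9 (chr2:156775214-156775513, plus strand) held matches to the CArG box. That of Mylk (chr16:34784700-34784999, plus strand) held none, like those of Cnn1, Des and Lmod1, and is shown as 1 example without a match. Capitals mark the matches, which were searched on both strands with up to 1 other base allowed in the core of the motif.

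Acta2: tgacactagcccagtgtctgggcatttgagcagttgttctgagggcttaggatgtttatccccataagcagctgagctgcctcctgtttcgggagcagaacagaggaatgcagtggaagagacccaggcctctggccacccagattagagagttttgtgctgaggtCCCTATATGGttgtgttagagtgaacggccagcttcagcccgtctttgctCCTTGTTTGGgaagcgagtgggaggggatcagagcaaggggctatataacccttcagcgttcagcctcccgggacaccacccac
Myl9: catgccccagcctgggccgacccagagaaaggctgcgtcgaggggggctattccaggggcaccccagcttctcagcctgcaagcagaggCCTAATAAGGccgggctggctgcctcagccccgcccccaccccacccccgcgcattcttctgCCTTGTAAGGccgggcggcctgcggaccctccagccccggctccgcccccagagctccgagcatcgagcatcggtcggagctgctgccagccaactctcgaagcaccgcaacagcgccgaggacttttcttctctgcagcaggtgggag
Mylk: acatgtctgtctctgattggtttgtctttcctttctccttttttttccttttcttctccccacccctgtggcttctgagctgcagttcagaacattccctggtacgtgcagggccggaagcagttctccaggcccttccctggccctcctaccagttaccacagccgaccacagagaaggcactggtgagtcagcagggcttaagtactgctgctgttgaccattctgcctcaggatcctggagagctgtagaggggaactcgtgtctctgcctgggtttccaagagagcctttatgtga

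Acta2 held 2 matches, CCCTATATGG and CCTTGTTTGG, beginning at -84 and -34 from the start site of the promoter window. The start sites used were not checked against these data. Myl9 also held 2, the exact box CCTAATAAGG at -161 and CCTTGTAAGG at -99. Actg2, Myh11 and Tagln are not in the table. Of all 32851 promoter windows, 1.63% held an exact box and 9.98% held a match with up to 1 other base. A match in letters is a description of the window and not a measured binding site.

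The smooth muscle actins were among the most abundant of the 9 at E14.5 and were close to absent from the adult cells. Acta2, the alpha actin of vascular and visceral smooth muscle, had 3.43, 5.11 and 6.12 CPM in the E12.5 libraries, 69.2, 73.6 and 54.3 at E14.5, 1.01, 0.490 and 0.130 in ISC, and 0.420, 0.0817 and 1.03 in AE. Every E14.5 library thus lay far above every other library, the E12.5 libraries lay above both adult groups, and the adult groups overlapped. Actg2, the gamma actin of enteric smooth muscle, had 0.994, 1.38 and 1.94 CPM at E12.5 and 29.6, 37.0 and 28.2 at E14.5. In the adult groups it was represented by 4 counts in a single ISC library and 2 counts in a single AE library, with 0 in the other 4 adult libraries.

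The myosin heavy chain followed the actins closely. Myh11, the motor of the smooth muscle thick filament, had 2.05, 2.57 and 5.35 CPM at E12.5, 61.3, 72.6 and 50.4 at E14.5, 0.507, 0.490 and 0.652 in ISC, and 0.245, 0.163 and 0.228 in AE. The 4 groups did not overlap for this gene. Myl9, the regulatory light chain that the kinase phosphorylates, had 2.41, 1.86 and 2.82 CPM at E12.5, 16.8, 17.4 and 14.8 at E14.5, 1.65, 0.926 and 0.261 in ISC, and 0.140, 0 and 0.114 in AE, which again left no overlap between groups.

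Mylk, the kinase, took another course. Its levels were 11.6, 11.99 and 13.6 CPM at E12.5, 43.2, 46.9 and 37.2 at E14.5, 39.1, 43.5 and 50.0 in ISC, and 369, 431 and 446 in AE. The AE libraries were the highest, E14.5 and ISC overlapped, and E12.5 was the lowest. Counts are per gene symbol, so the long and the short form of the kinase, and the small protein telokin made from its 3′ end, were not separated.

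The thin-filament proteins divided in the same way. Cnn1, calponin, which binds actin and restrains the myosin motor, had 0.192, 0.533 and 0.733 CPM at E12.5, 5.65, 6.48 and 5.84 at E14.5, 1.01, 0.218 and 0.0435 in ISC, and 0, 0 and 0.114 in AE. Only the E14.5 libraries stood clear of all others for Cnn1. Tagln, transgelin, an actin-binding protein also called SM22, had 2.21, 3.11 and 2.82 CPM at E12.5, 6.25, 5.31 and 5.84 at E14.5, 4.56, 4.08 and 3.70 in ISC, and 9.56, 12.3 and 8.56 in AE. No 2 groups overlapped, and the order resembled that of Mylk in having AE on top. Lmod1, leiomodin, which starts new actin filaments, was low throughout, with 0.802, 0.488 and 0.623 CPM at E12.5, 1.196, 0.956 and 0.703 at E14.5, 1 count over the 3 ISC libraries and 0 counts in AE.

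Des, desmin, the intermediate filament that links contractile units in muscle cells, was also low. It had 0.706, 0.355 and 0.440 CPM at E12.5 and 1.89, 2.48 and 2.55 at E14.5, was at 0 counts in all 3 ISC libraries, and had 7 counts in the AE libraries. A count of 0 over the 3 libraries allows a level of up to 0.0525 CPM in ISC and 0.0605 CPM in AE. These floors cover counting error only.

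**Figure D1:**
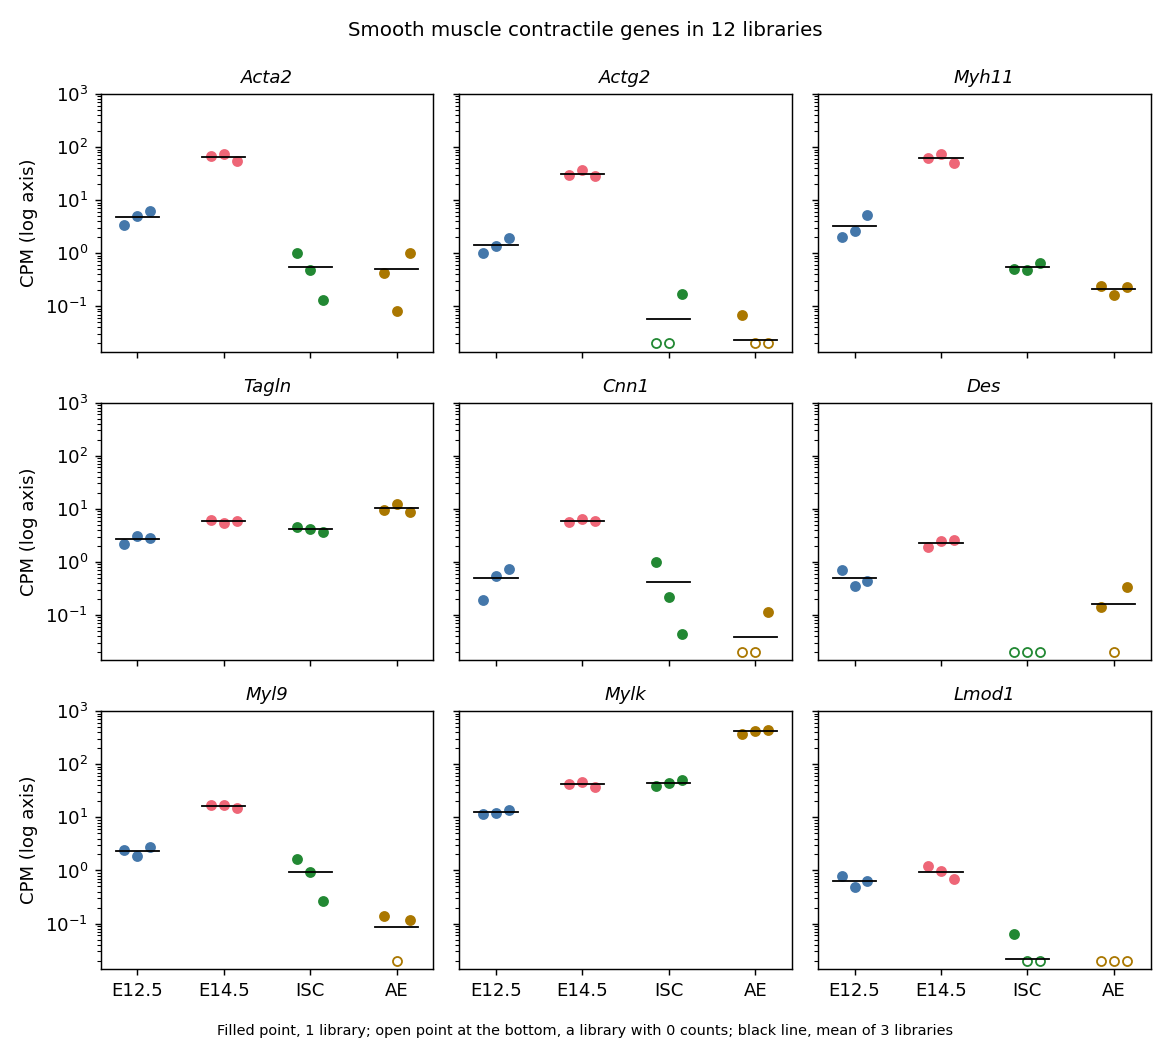
CPM of the 9 genes on a log axis, with 1 filled point per library, open points at the bottom for libraries with 0 counts and a black line at the mean of 3 libraries. Acta2, Actg2, Myh11, Cnn1, Des and Myl9 peak in E14.5, whereas Mylk reaches 369 to 446 CPM in AE and Tagln 8.56 to 12.3 CPM.

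Levels were set against one another per 1000 bases of merged exons (CPM per kb), a scale that mixes the forms of each gene. In E14.5 Acta2 came first at 32.3 ± 4.96 CPM per kb, then Actg2 at 23.1 ± 3.47, Myl9 at 14.47 ± 1.24, Myh11 at 9.30 ± 1.68, Mylk at 5.24 ± 0.607, Tagln at 3.64 ± 0.297, Cnn1 at 2.38 ± 0.171, Des at 0.762 ± 0.119 and Lmod1 at 0.241 ± 0.0624 (SD, n = 3). In AE the order was headed by Mylk at 51.3 ± 5.05 CPM per kb and Tagln at 6.37 ± 1.22, with every other member at or below 0.251 CPM per kb. In CPM not scaled for length, the kinase made up 43.6% ± 4.02 of the sum of the 9 genes at E12.5, 18.3% ± 0.395 at E14.5, 86.7% ± 4.73 in ISC and 97.4% ± 0.310 in AE (SD, n = 3 each). Its merged exons are the longest of the 9, at 8091 bases, which raises these shares above those per kb.

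**Figure D2:**
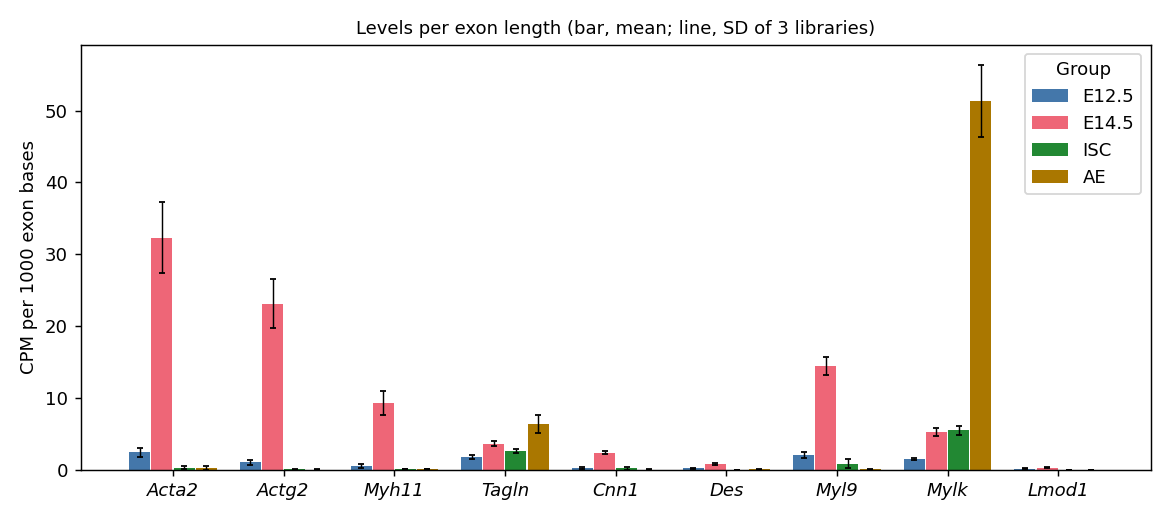
CPM per 1000 exon bases of the 9 genes, with a bar for the mean and a line for the SD of 3 libraries in each group. The actins lead in E14.5 at 32.3 and 23.1, and Mylk leads in AE at 51.3.

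The first comparison of the course asked what changed between the embryonic stages. From the values above, 8 of the 9 genes were higher in E14.5 than in E12.5 and none was lower, with edgeR's quasi-likelihood test and Benjamini-Hochberg adjustment over all 15342 genes tested. Of all genes tested 23.6% were called higher and 25.6% lower. The largest changes were in the heavy chain and the actins. Actg2 was 22.0-fold higher (log2 change 4.46 ± 0.298 SE, adjusted p = 7.36e-08), Myh11 18.5-fold (4.21 ± 0.281, adjusted p = 7.35e-08) and Acta2 13.5-fold (3.75 ± 0.327, adjusted p = 7.63e-07).

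Of the other members, Cnn1 was 12.46-fold higher in E14.5 than in E12.5 (adjusted p = 9.91e-05), Myl9 6.87-fold (adjusted p = 1.35e-05) and Des 4.48-fold (adjusted p = 0.00103). The 2 members that were highest in AE changed least among the 8, with Mylk 3.43-fold higher (adjusted p = 1.63e-07) and Tagln 2.14-fold higher (adjusted p = 0.000348). Lmod1 was the exception, at 0.952 ± 0.246 CPM in E14.5 and 0.638 ± 0.157 CPM in E12.5 with overlapping libraries (SD, n = 3 each, edgeR adjusted p = 0.236). For the same 8 genes no E14.5 library overlapped an E12.5 library, against 34.4% of all genes tested.

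The median log2 change of the 9 was 2.78, beside -0.02 over all genes tested. All 9 passed the filter on low counts, but Cnn1 and Des exceeded its level of 0.474 CPM in all 3 libraries of E14.5 only. Without the filter 8 members were higher too, and the count was 8 under every alternative fit and with any of the 6 libraries left out. Most members shared their lowest and highest embryonic library: replicate 3 of E14.5 was the lowest of its group for 6 of 9 and replicate 2 the highest for 6, while replicate 1 of E12.5 was the lowest for 6 and replicate 3 the highest for 6. The same was not counted over all genes. Epcam had the same order in E14.5, with 834 CPM in replicate 3 and 875 CPM in replicate 2. In E12.5 it was lowest in replicate 2 (429 CPM) and highest in replicate 3 (512 CPM).

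Set against E14.5, the adult stem cells held few contractile transcripts other than those of Mylk and Tagln. In ISC 8 of the 9 genes were lower than in E14.5 and none was higher, while 30.6% of all genes tested were called lower and 30.2% higher. Actg2 fell by 8.73 on the log2 scale (adjusted p = 1.27e-09), Acta2 was 130-fold lower (adjusted p = 6.52e-09) and Myh11 109-fold lower (adjusted p = 1.17e-09), all by edgeR's quasi-likelihood test. Myl9 was 18.3-fold lower (adjusted p = 4.32e-07) and Cnn1 15.5-fold lower (adjusted p = 5.48e-05). Des was at least 43.6-fold lower, counted against the floor of 3 counts over the ISC group, and for Lmod1 the ratio of E14.5 over ISC was 56.6 with an exact 95% counting interval of 9.95 to 2254.

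Tagln was 1.41-fold lower in ISC than in E14.5 (edgeR adjusted p = 0.0357), a call lost without replicate 1 or 3 of E14.5 (0.116 and 0.0756) or without replicate 2 or 3 of ISC (0.0788 and 0.0816), all as adjusted p. Mylk averaged 44.2 ± 5.48 CPM in ISC and 42.4 ± 4.91 CPM in E14.5 with overlapping libraries (SD, n = 3 each, edgeR adjusted p = 0.697). The residual ISC signal was uneven, with replicate 1 the highest of its group for 5 of the 8 members that had counts. Without that library the log2 change was -7.79 for Acta2 (-7.03 with it), -5.57 for Cnn1 (-3.95) and -4.84 for Myl9 (-4.19). Without replicate 3 of ISC that of Cnn1 was -3.36. All the ISC counts of Actg2 were in replicate 3 and the ISC count of Lmod1 was in replicate 1. The median log2 change of the 9 was -5.43, beside -0.0048 over all genes tested, and it was also -5.43 with Des at its bound.

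Between the adult populations the kinase showed the largest difference in CPM. Of the 9 genes, 3 were higher in AE than in ISC and 2 were lower, while 32.6% of all genes tested were called higher and 35.2% lower. Mylk was 9.37-fold higher in AE (log2 change 3.23, adjusted p = 5.18e-10) and Tagln 2.48-fold higher (log2 change 1.31, adjusted p = 3.68e-05), both by edgeR's quasi-likelihood test and with no overlap. Pcsk7, which overlaps Tagln on the opposite strand, was higher in AE as well, with 78.8 ± 4.82 CPM in AE and 35.2 ± 2.29 CPM in ISC (SD, n = 3 each), and its part in the Tagln result was not tested. Des was called higher on 7 counts in AE against 0 in ISC, at least 2.69-fold (edgeR adjusted p = 0.0178). Its AE libraries held 4, 0 and 3 counts, so the groups overlapped.

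Myl9 was 8.54-fold lower in AE than in ISC (log2 change -3.09, edgeR adjusted p = 0.00240), and the log2 change was -4.07 without replicate 1 of AE and -2.45 without replicate 1 of ISC. Cnn1 was called lower on 1 count in AE against 21 in ISC (edgeR adjusted p = 0.0280), a ratio of ISC over AE of 18.2 with an exact 95% counting interval of 2.93 to 753. That call rested on single libraries, since the adjusted p was 0.152 without replicate 1 of AE, 0.0717 without replicate 2 of AE and 0.184 without replicate 1 of ISC. Acta2 (0.510 ± 0.479 CPM in AE and 0.545 ± 0.444 CPM in ISC) and Myh11 (0.212 ± 0.0432 CPM in AE and 0.550 ± 0.0891 CPM in ISC) did not pass, with edgeR adjusted p = 0.871 and 0.0892 (SD, n = 3 each), although no AE library of Myh11 overlapped ISC and DESeq2 gave an adjusted p of 0.0480. Actg2, with 2 counts in AE against 4 in ISC, and Lmod1, with 0 against 1, were too sparse for a difference to be detectable at this depth. The median log2 change of the 9 was -0.73, also with Des at its bound, beside -0.05 over all genes.

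The remaining comparisons include those that lie within each kind of file. ISC against E12.5, where multiply aligned reads were listed in both groups, had 2 genes higher (33.9% of all genes tested) and 6 lower (34.6%). Mylk was 3.57-fold higher in ISC (edgeR adjusted p = 1.84e-08) and Tagln 1.52-fold (adjusted p = 0.0163), a call lost for Tagln without replicate 1 of E12.5 (adjusted p = 0.0723) or replicate 1 of ISC (0.0522). Acta2 was 9.65-fold lower, Actg2 19.3-fold, Myh11 5.92-fold and Myl9 2.66-fold lower in ISC, and Cnn1 did not pass (edgeR adjusted p = 0.719). Without replicate 1 of ISC the log2 change was -4.03 for Acta2 (-3.27 with it), -2.05 for Myl9 (-1.41) and -1.92 for Cnn1, which then passed (adjusted p = 0.0435). Des was at least 9.88-fold lower in ISC and the E12.5 over ISC ratio of Lmod1 was 37.4, with an exact 95% counting interval of 6.43 to 1505. The median log2 change of the 9 was -2.57.

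AE against E14.5, where no multiply aligned reads were listed in either group, had 2 genes higher (36.7% of all genes tested) and 7 lower (41.5%). Mylk was 9.77-fold higher in AE (edgeR adjusted p = 5.40e-11) and Tagln 1.75-fold (adjusted p = 0.00113). Myh11 was 272-fold, Myl9 156-fold, Acta2 144.7-fold and Des 15.6-fold lower in AE, the value for Myl9 being a log2 change of -7.29, or -8.28 without replicate 1 of AE. Lmod1 was at least 16.3-fold lower. The E14.5 over AE ratio was 809 for Actg2, with an exact 95% counting interval of 224 to 6681, and 300.3 for Cnn1, with 53.7 to 11880. The median log2 change of the 9 was -7.29, or -7.18 with Lmod1 at its bound, beside -0.12 over all genes tested.

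AE against E12.5, where multiply aligned reads were listed only in E12.5, had 2 genes higher (38.4% of all genes tested) and 7 lower (43.7%), and Mylk, at 33.5-fold higher in AE, had its largest fold of the 6 comparisons (edgeR adjusted p = 1.35e-12). Tagln was 3.76-fold higher in AE (adjusted p = 5.00e-07). Myl9 was 22.7-fold, Myh11 14.7-fold and Acta2 10.7-fold lower in AE, and Lmod1 at least 10.8-fold lower, with Myl9 at a log2 change of -4.51, or -5.50 without replicate 1 of AE. For Actg2, whose AE counts were all in replicate 1, the E12.5 over AE ratio was 35.2 with an exact 95% counting interval of 9.52 to 294. The median log2 change of the 9 was -3.88, or -3.43 with Lmod1 at its bound, beside -0.15 over all genes tested. The calls for Cnn1 and Des, made on 1 and 7 AE counts, were lost without replicate 1 of AE (edgeR adjusted p = 0.0785 and 0.0807), and that for Des also without replicate 2 of AE (0.0580) or replicate 1 of E12.5 (0.0811). Comparisons that name the same group share its libraries and are not independent of one another.

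The members' courses over the 12 libraries fell into a tight set and looser ones. After each gene was centred on the log2(CPM + 0.5) scale, Actg2 and Myh11 differed by a root-mean-square of 0.25 log2 units, Acta2 and Myh11 by 0.49, and Des and Lmod1 by 0.51. Des and Lmod1 averaged only 2.31 and 0.952 CPM in E14.5, their highest group, and at such levels the added 0.5 narrows differences. Mylk stood 3.69 units from Acta2 and was nearest to Tagln, at 1.24. The profile averaged over the 7 members of at least 5 CPM in their highest group was closely matched, among genes of no list, by Col6a4 (0.30 units), Sparcl1 (0.32), Mamdc4 (0.34), Hebp1 (0.39), Pear1 (0.40), the long non-coding RNA Fendrr (0.43) and Cyp1b1 (0.44). All 7 peaked in E14.5. Mamdc4 was the most abundant of them, with 18.7 ± 0.513 CPM at E12.5, 139.7 ± 15.5 at E14.5, 9.43 ± 2.14 in ISC and 14.51 ± 0.774 in AE (SD, n = 3 each).

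Other genes of the smooth muscle machinery moved in both directions between the embryonic stages. Of 29 further contractile and cytoskeletal genes, 27 were tested and 10 were higher and 6 lower in E14.5 than in E12.5 (median log2 change 0.21). Beside this list and those below, 23.6% of all genes tested were called higher and 25.6% lower in this comparison. The shares were 30.2% and 30.6% in ISC against E14.5, and 32.6% and 35.2% in AE against ISC. List counts near these shares do not set a list apart from all genes. Among the further genes reaching 5 CPM in E14.5 or E12.5, the 4 largest changes were all increases. Ldb3, a Z-disc protein, was 12.3-fold higher with 6.12 ± 0.558 CPM in E14.5 and 0.482 ± 0.114 CPM in E12.5, the beta tropomyosin gene Tpm2 6.05-fold, the cyclic GMP-dependent kinase Prkg1 4.98-fold and Pgm5, a protein of muscle adhesion sites, 4.23-fold (SD, n = 3 each, edgeR adjusted p = 6.42e-05 at most). Below that level, the caveolin gene Cav1 was 12.1-fold higher, with 3.02 CPM in E14.5 and 0.249 CPM in E12.5, and Hspb7 10.6-fold and Pdlim3 6.43-fold higher. The largest decrease was in Synm, an intermediate filament protein, which was 3.90-fold lower with 3.83 CPM in E14.5 and 14.98 CPM in E12.5. Among the most abundant, the alpha tropomyosin gene Tpm1 was lower (672 ± 8.31 CPM in E14.5 and 838 ± 95.3 CPM in E12.5, adjusted p = 0.0413), the actin crosslinker Flna was 1.84-fold lower (adjusted p = 0.00262) and the kinase Rock1 did not pass (160 ± 13.4 CPM in E14.5 and 142 ± 21.6 CPM in E12.5, adjusted p = 0.387).

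In ISC against E14.5, 7 of the 27 were higher and 17 lower (median log2 change -1.09), and in AE against ISC 14 were higher and 8 lower (median 0.39). Ldb3 was 11.4-fold higher in AE, with 166 ± 39.1 CPM in AE and 14.7 ± 3.21 CPM in ISC (SD, n = 3 each, edgeR adjusted p = 4.51e-09), so that it shared with Mylk a highest level in the villus cells. Tpm2 and Pgm5 were 5.56-fold and 4.65-fold higher in AE than in ISC too.

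Of 14 regulators of smooth muscle genes, 11 were tested and 6 were higher and 2 lower in E14.5 than in E12.5 (median log2 change 0.80). Myocd, the coactivator myocardin, was 2.28-fold higher, with 5.25 ± 1.16 CPM in E14.5 and 2.33 ± 1.202 CPM in E12.5 (SD, n = 3 each, edgeR adjusted p = 0.0281), and had 0 counts in every ISC and AE library. Its partner Srf, serum response factor, had 82.0 ± 6.80 CPM in E14.5 and 73.2 ± 10.8 CPM in E12.5 and did not pass (adjusted p = 0.481). The other coactivators of this family, Mkl1 and Mkl2, were lower in E14.5 (1.44-fold and 1.21-fold), and Gata6 was 1.39-fold higher. Of the regulators below 5 CPM in both groups, Foxf2 was 5.68-fold, Foxf1 3.58-fold, Mef2c 3.09-fold and Heyl 2.59-fold higher in E14.5. In ISC 3 regulators were higher and 7 lower than in E14.5, and in AE none was higher and 2, Srf and Mkl2, were lower than in ISC, by 2.76-fold and 3.44-fold (adjusted p = 7.27e-06 and 6.21e-09).

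Most widely expressed counterparts of the members were present in every group, with 16 of 16 above a mean of 1 CPM at E12.5 and 15 of 16 in each of E14.5, ISC and AE. Of the 16, 7 were higher and 4 lower in E14.5 than in E12.5 (median log2 change 0.25), 4 higher and 4 lower in ISC than in E14.5, and 9 higher and 3 lower in AE than in ISC. The cytoplasmic actin Actb had 1589 ± 48.3 CPM in E14.5 and 1440 ± 164 CPM in E12.5 (adjusted p = 0.470), and was 3.01-fold higher in AE than in ISC (adjusted p = 7.30e-07). The non-muscle myosin Myh9, at 427 ± 16.1 CPM in E14.5 and 419 ± 26.0 CPM in E12.5 (adjusted p = 0.850), and Tagln2, the widely expressed transgelin, at 503 ± 14.8 CPM in E14.5 and 440 ± 60.7 CPM in E12.5 (adjusted p = 0.249), did not pass between the embryonic stages (SD, n = 3 each). Other counterparts were less steady. Myh14 averaged 3.61 CPM at E12.5, 59.5 at E14.5, 188 in ISC and 723 in AE. Myh10 ran the other way, at 476, 177, 9.04 and 6.04 CPM in the same order.

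Mesenchyme and fibroblast markers, chosen as markers of other cells that the sort could hold, moved with the members in most cases. In these bulk samples fewer cells of a type and less RNA per cell cannot be told apart. Of 28 mesenchyme and fibroblast markers, 24 were tested, and 19 were higher and 3 lower in E14.5 than in E12.5, with a median log2 change of 2.17. Among the defining ones, the collagen gene Col3a1 was 6.27-fold higher with 67.6 ± 10.95 CPM in E14.5 and 10.8 ± 0.234 CPM in E12.5, Col1a1 10.9-fold higher with 23.6 ± 3.25 CPM in E14.5 and 2.20 ± 1.09 CPM in E12.5, and the receptor Pdgfra 4.18-fold higher with 10.1 ± 1.62 CPM in E14.5 and 2.43 ± 1.18 CPM in E12.5 (SD, n = 3 each). The most abundant on the list, Ptch1 and Meis1, ran the other way, being 1.83-fold and 2.77-fold lower in E14.5. The summed level of the 28 therefore overlapped, at 307 to 392 CPM in E14.5 and 296 to 338 CPM in E12.5, with none of the 28 at 0 in E14.5 and 1 at 0 in E12.5.

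Over the adult groups those 28 markers summed to 115 to 130 CPM in ISC, most of it Ptch1 at 111 ± 6.68 CPM, and to 23.6 to 30.5 CPM in AE (SD, n = 3). Of the 24 tested, 21 were lower and 1 higher in ISC than in E14.5, and 3 were higher and 2 lower in AE than in ISC. The defining markers were near 0 there, with 1, 3 and 2 counts of Col3a1, Col1a1 and Pdgfra over the ISC libraries and 1, 2 and 2 over the AE libraries, and 10 of the 28 were at 0 in ISC and 5 in AE.

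The 7 members other than Mylk and Tagln, a subset chosen after their values were seen, summed to 186, 211 and 157 CPM in E14.5, against 10.6, 12.3 and 18.0 CPM in E12.5. Divided by Col3a1 in the same library, the sum was 2.45, 2.92 and 2.84 in E14.5 and 0.973, 1.17 and 1.65 in E12.5, without overlap. Divided by Pdgfra it was 16.2, 19.9 and 18.9 in E14.5 and 8.05, 5.33 and 4.92 in E12.5, again without overlap. Divided by Col1a1 it was 6.89, 8.97 and 7.67 in E14.5 and 6.60, 3.55 and 11.7 in E12.5, where the groups overlapped. Over all 24 of the 28 markers that had counts in all 6 embryonic libraries, the ratio was higher in every E14.5 library than in every E12.5 library for 16, overlapped for 5 and was lower for 3, Col6a1, Col6a3 and Lox, so its direction depended on the marker. It depended on the subset too, since Mylk and Tagln changed least among the members called. All 9 members summed to 235, 263 and 200 CPM in E14.5 and 24.4, 27.4 and 34.5 CPM in E12.5. Divided by Col3a1, that sum overlapped between the groups, and divided by Pdgfra it did not. The sum of the 7 was 4.24, 2.12 and 1.26 CPM in ISC and 1.02, 0.245 and 1.83 CPM in AE. In the AE libraries, where Mylk stood at 369 to 446 CPM, Acta2 averaged 0.510 CPM and Myh11 0.212 CPM, and in the ISC libraries, where Mylk stood at 39.1 to 50.0 CPM, they averaged 0.545 and 0.550 CPM. The part of carried-over mesenchyme or muscle in the E14.5 values was not tested.

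**Figure D3:**
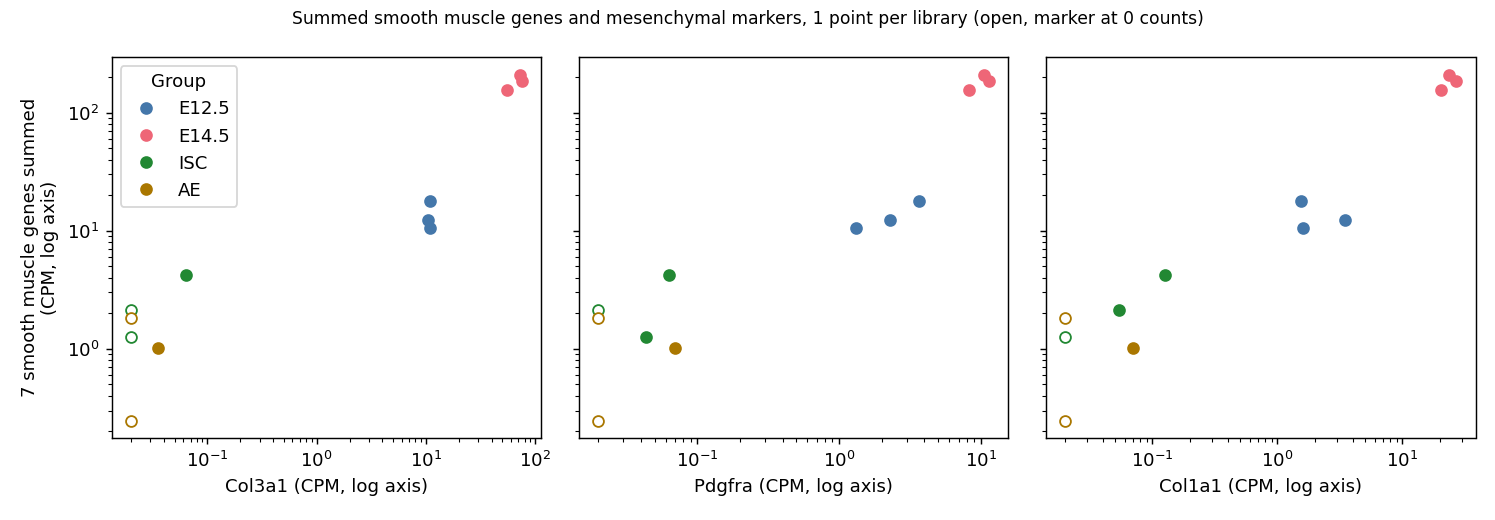
Summed CPM of the 7 contractile genes without Mylk and Tagln against Col3a1 (left), Pdgfra (middle) and Col1a1 (right), both axes logarithmic, with 1 point per library and open points for a marker at 0 counts. The E14.5 libraries lie at 157 to 211 CPM on the vertical axis and the E12.5 libraries at 10.6 to 18.0 CPM, and the adult libraries lie lowest on both axes.

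Other neighbouring cells gave a mixed picture between E14.5 and E12.5, where 23.6% of all genes tested were called higher and 25.6% lower. Of 4 mesothelial markers tested 2 were higher and none lower, Upk3b being 5.50-fold higher with 21.6 ± 1.14 CPM in E14.5 and 3.91 ± 1.06 CPM in E12.5 (SD, n = 3 each, edgeR adjusted p = 1.47e-06). The list summed to 26.3 to 28.3 CPM in E14.5 and 6.82 to 10.3 CPM in E12.5. Of 8 markers of pericytes and interstitial cells of Cajal, the pacemaker cells of the gut muscle, 3 were higher and 3 lower, and the sum was lower at 97.2 to 103.9 CPM in E14.5 and 228 to 237 CPM in E12.5. Rgs5, which defines pericytes, had 1.66 ± 0.339 CPM in E14.5 and 0.665 ± 0.0597 CPM in E12.5, while the interstitial cell markers Kit and Ano1 were 2.17-fold and 2.03-fold lower (SD, n = 3 each). Kit and Notch3 made up most of both sums. Kit had 44.3 CPM in E14.5 and 96.0 CPM in E12.5, and Notch3 33.2 and 113 CPM. Abcc9 had 5.19 CPM in E14.5 and 0.339 CPM in E12.5, and Kcnj8 1.70 and 0.203 CPM. The adult sorts also held Kit, at 67.5 ± 13.1 CPM in ISC and 19.9 ± 4.49 CPM in AE (SD, n = 3 each). Which cells carried Kit in each group was not tested.

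Enteric neural markers were higher for 3 and lower for 1 of 11, with sums of 31.2 to 36.9 CPM in E14.5 and 18.2 to 22.2 CPM in E12.5. Of 8 striated muscle markers tested 4 were higher and 1 lower, and their sums overlapped at 19.7 to 20.7 CPM in E14.5 and 17.8 to 22.5 CPM in E12.5. The endothelial (2 higher and 1 lower of 6) and immune (3 higher and none lower of 8) markers summed to 3.29 to 8.52 and 30.3 to 32.6 CPM in E14.5, and to 2.66 to 6.53 and 24.2 to 29.9 CPM in E12.5. The genes of the gated proteins were low. Pecam1 (CD31) had 0.883 CPM in E14.5 and 0.631 CPM in E12.5, and Ptprc (CD45) 0.177 and 0.0229 CPM. The endothelial marker Cdh5 had 1.14 and 0.814 CPM. Most of the immune sum was Cd68 and Itgam, at 15.9 and 10.2 CPM in E14.5 and 19.2 and 3.90 CPM in E12.5. Itgam was highest in AE, at 34.5 CPM. Epithelial markers were higher for 7 and lower for 2 of 13, with sums of 3860 to 4013 CPM in E14.5 and 2426 to 2809 CPM in E12.5, and Epcam itself was 1.77-fold higher (edgeR adjusted p = 0.000604). The part of these lists in the members' changes was not tested.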

How the data were processed

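Total RNA of sorted cells was amplified with a NuGEN Ovation kit, per the labels' protocols. Each deposited file lists whole-number read counts by gene symbol, without normalisation. Named in the submitters' processing notes are the build mm9, the aligner STAR (2.3.1z13) and the counter HTSeq (0.6.1p1), besides bcl2fastq (1.8.4), SAMtools (1.2) and DESeq2 (1.6.3), with gene annotation and strand setting not given in the sources used here. Reads outside genes (33.4% to 58.1%) and ambiguous reads (0.531% to 1.00%) stayed out of library sizes and tests. Groups follow the titles.

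All 12 libraries were fitted together with edgeR 4.0.16 (R 4.3.3), 1 coefficient per group and no covariate, with trimmed mean of M values (TMM) scaling (factors 0.696 to 1.16), and p-values were adjusted by Benjamini-Hochberg over 15342 genes kept by filterByExpr, at 0.05. SE is the log2 change over the root of the F statistic. The procedure was tested on simulated data. Alternatives were relative log expression and upper-quartile factors, DESeq2 1.42.0, limma-voom 3.58.1, no filter, 2 groups alone, a replicate block and leaving out libraries. Replicates of a group differed by more than sampling noise. A fold against a group at 0 uses a floor of 3 counts over that group. Amplified reads are not independent molecules, so intervals cover counting error only.

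The members and the lists were chosen with earlier results of these data known. Named by rule are all members, the 3 most abundant genes of the main lists, up to 4 genes of each of the contractile and regulator lists with the largest changes among those reaching 5 CPM in E14.5 or E12.5, and the genes most like the members, of which 1 covered by the rule is not reported here. The defining markers, and low genes of those lists chosen after their values were seen, are named too, and the lists of other cell types are given by counts. Sequences are from RefSeq (GRCm38.p6) and GENCODE M21.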

Additional observations from a re-analysis of the deposited data

How the results depend on the processing

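Of the 156 values of member counts under alternatives, 149 lay within 1.5 times the reported count. The count of members lower in AE than in ISC (2) was 0 in a fit of the 2 groups alone, where only Mylk and Tagln passed the filter, 1 under limma-voom and 3 under DESeq2, and ran from 1 to 2 when libraries were left out. The count of members higher in ISC than in E12.5 (2) ran from 1 to 2 when libraries were left out, without replicate 1 of E12.5 or of ISC. In E14.5 against E12.5 it was 8 throughout.

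Directions that turned were all of members without a call. In AE against ISC, Acta2 (-0.15 as reported) was 0.26 without replicate 2 of AE, over a range of -0.67 to 0.61 with libraries left out, and Actg2 (-0.73) was 0.11 under limma-voom and -3.89 to 3.20 with libraries left out. In ISC against E12.5, Cnn1 (-0.31) was 0.15 without replicate 3 of E12.5, over a range of -1.92 to 0.30. In ISC against E14.5, Mylk (0.06) was -0.03 without replicate 3 of E14.5, over a range of -0.076 to 0.14. The causes were not tested. Under limma-voom Cnn1 missed the threshold in AE against ISC (adjusted p = 0.0781).

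Upper-quartile scaling put Mylk in AE at 367 CPM (415 as reported) and the median log2 change of all genes at -0.25 in AE against ISC, -0.37 in AE against E14.5 and -0.42 in AE against E12.5. The libraries share only a number across groups: deviations of same-numbered libraries correlated at -0.106 to 0.144. With the replicate block 7 members were lower in ISC than in E14.5 (8 without it), Tagln being lost (adjusted p = 0.0504), and every other count of members was as reported. In ISC against E12.5 each library correlated best with its own number. At these depths, levels in the adult groups near 0.05 CPM rest on single counts.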
